A study of Mus musculus with 4 samples.

Results

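Transcripts of 10 chemokine ligands were followed through the immune cells of the injured mouse brain. The members were Ccl2, Ccl3, Ccl4, Ccl5, Ccl6, Ccl9, Ccl12, Cxcl2, Cxcl10 and Cxcl16, picked by symbol out of 32285 genes counted in each of 8 single-cell matrices. CD45+ cells had been sorted from 2 brain regions, thalamus and hippocampus (HPC), of C57B6/J mice that had all received a cortical brain injury, and their polyadenylated RNA had been sequenced from the 3′ end on the 10x Genomics platform. No uninjured tissue was measured, so every comparison was between regions, cell classes or microglial states. Thalamus and HPC were dissected from the injured hemisphere, and for each region tagged cells from 4 mice had been combined, giving 4 tagged sets of thalamus cells and 4 of HPC cells. Each set was taken as 1 mouse, which the labels do not state. They also give no age, sex or time after injury, while the methods of the study name female mice for most experiments. All thalamus cells came from 1 library and all HPC cells from another, and the effects of library and region cannot be told apart.

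Chemokines are small secreted proteins that direct the movement of leukocytes through G protein-coupled receptors. Ccl2 and Ccl12 draw monocytes through the receptor CCR2, Ccl3, Ccl4 and Ccl5 draw monocytes and T cells, Ccl3, Ccl5, Ccl6 and Ccl9 bind CCR1, Cxcl2 draws neutrophils through CXCR2, Cxcl10 draws activated T cells through CXCR3, and Cxcl16, which is made as a membrane-bound protein, binds CXCR6. In the brain, microglia are a known source of several of them. Interferon-stimulated response elements and NF-kB sites are textbook control sequences of chemokine genes, among which Cxcl10 is induced by interferon and Cxcl2 by NF-kB.

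The genes lay in a few clusters. On chromosome 11 of the mouse genome GRCm38, Ccl2 (82035571 to 82037453) was 64.4 kb from Ccl12 (82101845 to 82103400), Ccl3 (83647844 to 83649355) was 13.2 kb from Ccl4 (83662584 to 83664683), and Ccl6 (83587882 to 83593087) was 9.2 kb from Ccl9 (83572919 to 83578636). Ccl5 (83525778 to 83530518) and Cxcl16 (70453983 to 70459984) were also on chromosome 11, and Cxcl2 (90903871 to 90905938) and Cxcl10 (92346638 to 92348889) were on chromosome 5. All 10 were protein-coding. Exons of Cxcl10 overlapped those of Art3 on the opposite strand, and exons of Cxcl16 overlapped those of Zmynd15. Ccl2 lay over Gm17268 and Ccl6 over E230016K23Rik without sharing exon bases. Whether the counting used strand was not stated, and without it reads of such partners cannot be told apart.

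RefSeq promoters (GRCm38.p6, 250 bases before to 50 bases after the start of transcription) were at hand for 6 of the 10, namely Ccl3, Ccl6, Ccl9, Ccl12, Cxcl2 and Cxcl10. Those of Cxcl10 and Cxcl2 are printed 5′ to 3′ because Cxcl10 had the largest fold change by microglial state below, and because Cxcl2 came mostly from neutrophil-like cells (a mean of 69.1% of its UMIs per thalamus set and 68.2% per HPC set). Capitals mark matches, on either strand, to the interferon-stimulated response element (GAAA, any 2 bases, GAAA) or to the NF-kB consensus.
Cxcl10, chr5:92348840-92349139, minus strand: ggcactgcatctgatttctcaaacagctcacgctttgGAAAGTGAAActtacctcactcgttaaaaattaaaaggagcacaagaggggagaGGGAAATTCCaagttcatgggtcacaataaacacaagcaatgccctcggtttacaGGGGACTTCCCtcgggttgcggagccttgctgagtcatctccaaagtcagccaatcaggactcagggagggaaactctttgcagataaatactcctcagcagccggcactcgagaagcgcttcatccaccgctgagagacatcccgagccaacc
Cxcl2, chr5:90903649-90903948, plus strand: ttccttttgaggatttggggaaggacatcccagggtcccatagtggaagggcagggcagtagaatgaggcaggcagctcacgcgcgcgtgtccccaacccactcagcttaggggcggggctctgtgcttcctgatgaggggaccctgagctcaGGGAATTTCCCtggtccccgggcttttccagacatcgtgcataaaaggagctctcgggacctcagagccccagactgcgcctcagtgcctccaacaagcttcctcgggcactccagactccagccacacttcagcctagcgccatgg
The response element was in the Cxcl10 promoter alone among the 6, starting 213 bases before the start of transcription, and 3.44% of the 32851 promoters of the table held a match. The NF-kB consensus matched in the promoters of Cxcl10, Cxcl2 and Ccl9 and in 8.46% of all promoters. In Cxcl10 the matches began 159, 104 and 103 bases before the start, the latter pair overlapping, and in Cxcl2 they began 97 and 96 bases before it, also overlapping. Such matches describe letters and are not shown to be bound here.

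The promoters of the neighbours Ccl6 and Ccl9 are printed because these genes shared their region pattern below. Capitals mark runs of at least 8 bases that both hold on the same strand.
Ccl6, chr11:83593038-83593337, minus strand: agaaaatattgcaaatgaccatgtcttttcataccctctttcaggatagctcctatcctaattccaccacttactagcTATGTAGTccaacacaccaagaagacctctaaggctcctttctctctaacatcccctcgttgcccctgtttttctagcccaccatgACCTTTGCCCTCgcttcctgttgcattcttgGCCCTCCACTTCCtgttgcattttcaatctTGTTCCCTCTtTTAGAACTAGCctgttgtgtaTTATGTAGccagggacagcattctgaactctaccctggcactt
Ccl9, chr11:83578587-83578886, minus strand: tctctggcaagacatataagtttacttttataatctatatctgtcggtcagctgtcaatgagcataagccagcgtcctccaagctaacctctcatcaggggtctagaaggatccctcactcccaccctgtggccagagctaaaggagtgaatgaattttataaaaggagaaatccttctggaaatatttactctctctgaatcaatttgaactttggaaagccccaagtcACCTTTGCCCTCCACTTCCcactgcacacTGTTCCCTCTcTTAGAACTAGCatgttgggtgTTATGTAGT
Shared runs covered 62 bases of the Ccl6 promoter and 49 of the Ccl9 promoter, with a longest run of 13 bases. Of the other 14 pairs among the 6 promoters, the highest, Cxcl10 and Cxcl2, had 36 bases in such runs.

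After filtering (200 to 7500 genes and at most 2% mitochondrial counts per cell), 24939 cells with 119958441 unique molecular identifiers (UMIs, molecules counted once) remained, 2072 to 5389 per set, with median UMIs per cell of 4261.5 to 4657. Cells were classed by how many markers of a list had a UMI, with no chemokine ligand or receptor among the markers. This gave 18847 microglia-like cells (75.6%), 880 neutrophil-like (3.53%), 251 dendritic-like (1.01%), 3003 T- or NK-like (12.0%) and 343 macrophage- or monocyte-like (1.38%), while 1542 (6.18%) had no class. Within the microglia-like cells 6610 were homeostatic-like, 2743 were like disease-associated microglia (DAM-like), 918 inflammatory-like, 320 interferon-like and 255 MHC class II-like. A further 6484 (34.4%) had no state, 1495 (7.93%) met the gates of several states and 22 were cycling, so the named states do not cover all microglia-like cells. These states are ranges cut from marker counts: 1279 microglia-like cells had exactly the 5 DAM markers needed and 2557 were 1 marker short. Levels are given as UMIs of a gene per 10000 UMIs of the class or state in a set, for sets with at least 20 such cells. Because the values are 3′ counts of different genes, levels were compared between cells and not between genes. The microglia list summed to 367 to 416 per 10000 in microglia-like cells of each set and the T or NK list to 97.7 to 117 in T- or NK-like cells, as the gates on these lists require. Of the cell barcodes, 65 occurred in both regions (49 of them kept) and 0 in more than 1 set of a region.

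Each ligand had its own order of cell classes, given here as the mean over sets of both regions. Cxcl2, the neutrophil attractant, was highest in neutrophil-like cells with 9.71 ± 5.95 (SD, n = 6 sets), followed by macrophage- or monocyte-like cells with 0.469 ± 0.690 (n = 5). The lowest neutrophil-like set, at 1.60, lay below the highest macrophage- or monocyte-like set, at 1.69, so these neighbours overlapped. Microglia-like cells held 50 Cxcl2 UMIs in 18847 cells.

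Ccl5, a ligand made by activated T and NK cells, averaged 9.36 ± 6.93 in dendritic-like cells (n = 3) and 6.98 ± 2.24 in T- or NK-like cells (n = 8), whose ranges overlapped. The T- or NK-like sets held 7.08, 3.38, 10.5 and 5.54 in the thalamus against 9.55, 6.99, 6.14 and 6.67 in the HPC. Neither region stood apart. T- or NK-like cells accounted for a mean of 47.0% of all Ccl5 UMIs per thalamus set and 35.1% per HPC set, and microglia-like cells for 27.4% and 37.9%. For Ccl2, Ccl12, Ccl3, Ccl4, Ccl6, Ccl9 and Cxcl16 the microglia-like share averaged 80.3% to 94.2% in either region. Most of the sorted material was microglia-like: 66.6% to 85.6% of kept cells per thalamus set and 63.9% to 94.0% per HPC set. This class held 40592222 out of 54478165 kept UMIs (thalamus) and 52749854 out of 65480276 (HPC). High shares thus partly follow cell numbers and do not by themselves show a higher level in microglia-like cells.

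Ccl6 averaged 6.23 ± 1.90 in neutrophil-like cells, 3.29 ± 0.710 in macrophage- or monocyte-like cells and 3.07 ± 1.99 in DAM-like microglia. Its neighbour Ccl9 was ordered differently: 1.76 ± 0.417 in macrophage- or monocyte-like cells, 1.17 ± 0.519 in DAM-like microglia and 0.161 ± 0.228 in neutrophil-like cells. Neutrophil-like cells thus ranked first for Ccl6, with a lowest set of 4.26, and below every microglial state for Ccl9. Ccl3 and Ccl4 kept the same first 3 places when the microglial states were ranked in place of all microglia-like cells. These were neutrophil-like cells (3.04 ± 1.93 and 5.76 ± 4.04), DAM-like microglia (2.77 ± 1.48 and 4.88 ± 2.28) and inflammatory-like microglia (1.43 ± 0.821 and 3.46 ± 1.74), with overlap at each step.

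Cxcl16 averaged 3.31 ± 0.955 in macrophage- or monocyte-like cells and 2.60 ± 0.508 in dendritic-like cells. Its homeostatic-like level of 0.640 ± 0.204 was above that of T- or NK-like cells (0.0570 ± 0.0369) with no overlap. Cxcl10 was the most uneven between sets: macrophage- or monocyte-like cells averaged 4.23 ± 5.08, from no UMI in thalamus set 2 to 12.6 in thalamus set 1, which supplied 738 of the UMIs. The Cxcl10 means that followed were 1.78 ± 0.951 in dendritic-like cells and 1.75 ± 1.78 in interferon-like microglia.

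**Figure D1:**
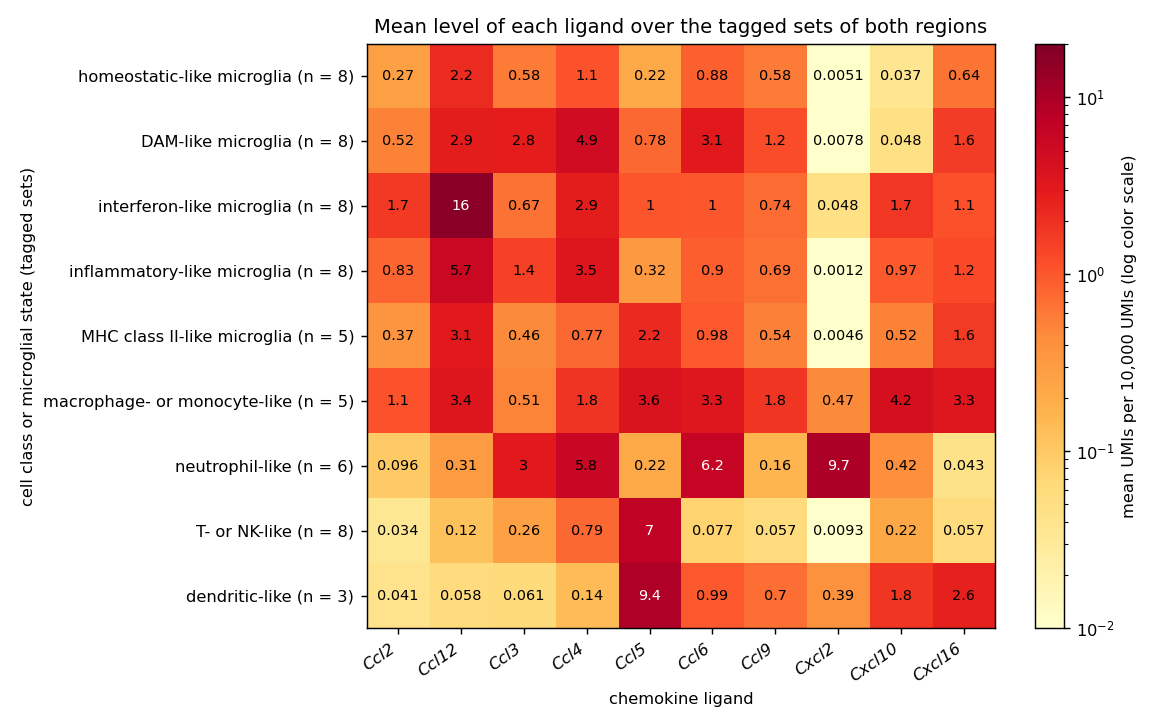
Mean level of each ligand (columns) in each cell class or microglial state (rows, n = sets with at least 20 cells), in UMIs per 10,000 UMIs on a log colour scale with the mean printed in each cell. Cxcl2 is dark in the neutrophil-like row (9.7), Ccl12 in the interferon-like row (16) and Ccl5 in the dendritic-like and T- or NK-like rows (9.4 and 7).

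The first comparison asked whether microglia-like cells of the thalamus and the HPC differed in their ligands. Ccl3, Ccl4, Ccl6, Ccl9 and Ccl2 were higher in the thalamus, with a fitted 2.18- to 4.25-fold difference, and Ccl12, Ccl5, Cxcl10 and Cxcl16 were not called. Ccl3 measured 3.78, 1.81, 2.56 and 2.85 in thalamus sets 1 to 4 and 0.856, 0.371, 0.655 and 0.823 in HPC sets 1 to 4. All thalamus sets were above all HPC sets, and the edgeR log2 fold change was 2.09 ± 0.29 (SE, adjusted p = 0.00268).

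Ccl4 measured 6.36, 3.30, 4.67 and 4.92 in the thalamus against 1.68, 0.907, 1.16 and 1.33 in the HPC. The regions again did not overlap, and set 1 was highest and set 2 lowest in each. The log2 fold change was 1.98 ± 0.24 (edgeR adjusted p = 0.00142). Ccl6 measured 2.88, 1.88, 3.27 and 2.54 in the thalamus against 0.654, 0.805, 0.862 and 0.896 in the HPC, so the lowest thalamus set had over 2 times the level of the highest HPC set. Its log2 fold change of 1.79 ± 0.16 had the lowest adjusted p of the members (edgeR, 0.000295). For Ccl9 the values were 1.24, 0.814, 1.22 and 1.19 against 0.405, 0.592, 0.644 and 0.515, again without overlap (log2 fold change 1.13 ± 0.16, edgeR adjusted p = 0.00258).

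Ccl2 measured 1.38, 0.729, 0.724 and 0.734 in the thalamus against 0.509, 0.227, 0.199 and 0.311 in the HPC. Set 1 was the highest of each region, and no HPC set reached the lowest thalamus set. The log2 fold change was 1.56 ± 0.34 (edgeR adjusted p = 0.0158), and without HPC set 2 the adjusted p was 0.0535. Its partner Ccl12, which binds the same receptor, measured 4.57, 4.42, 2.18 and 2.78 in the thalamus against 5.49, 2.87, 2.07 and 3.94 in the HPC. These ranges overlapped over most of their length, and the fitted log2 difference was 0.01 ± 0.33 (edgeR adjusted p = 0.989).

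Cxcl16 measured 1.38, 1.27, 0.980 and 1.19 in the thalamus against 1.48, 0.799, 0.603 and 0.753 in the HPC. HPC set 1 was above every thalamus set, and the others were below all of them. The log2 difference of 0.45 ± 0.26 was not called (edgeR adjusted p = 0.284), but with the set number as a replicate block it was 0.52 ± 0.12 (adjusted p = 0.0107) and without HPC set 1 it was 0.83 ± 0.13 (adjusted p = 0.00236). Cxcl10 measured 0.831, 0.159, 0.151 and 0.197 in the thalamus against 0.457, 0.117, 0.0942 and 0.363 in the HPC, and Ccl5 0.783, 0.657, 0.250 and 0.376 against 1.13, 0.417, 0.184 and 0.439. Both overlapped and neither was called (edgeR adjusted p = 0.694 and 0.963). Cxcl2 was below the count filter.

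**Figure D2:**
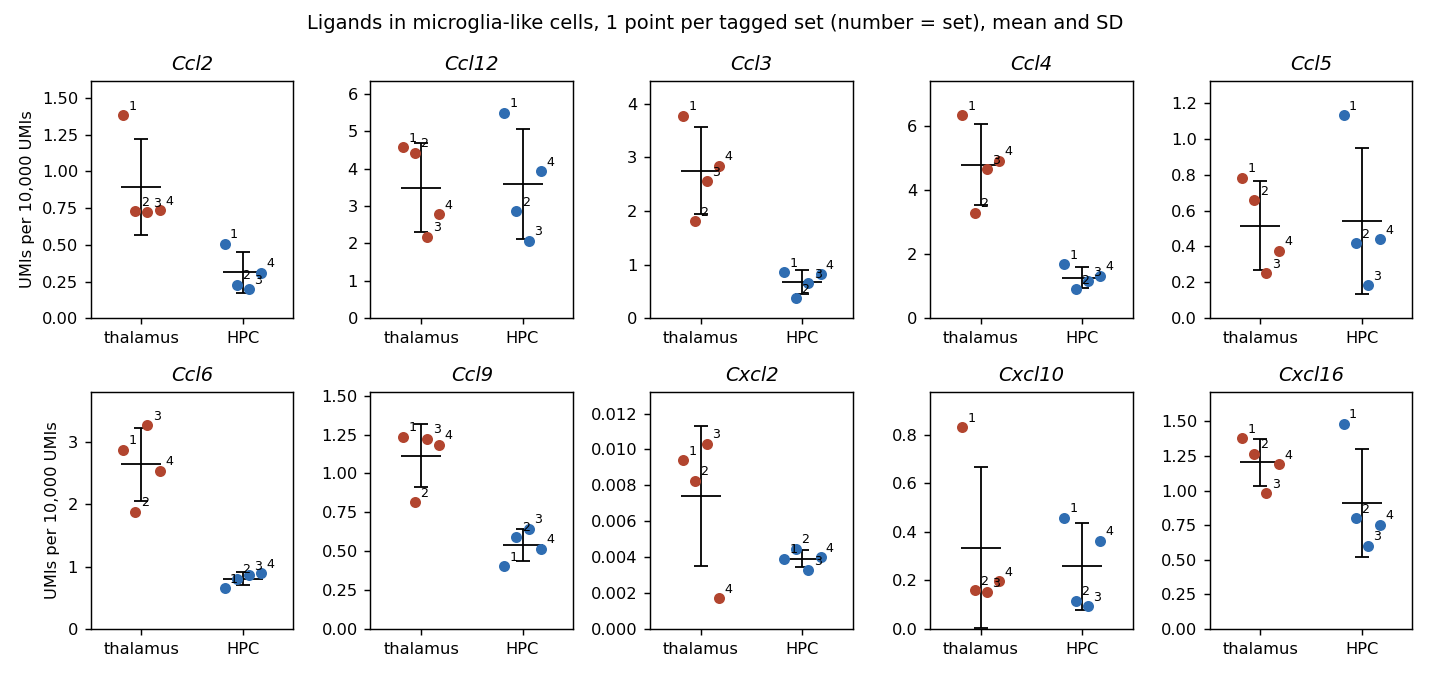
Level of each ligand in microglia-like cells, in UMIs per 10,000 UMIs, with a point for each tagged set (numbered) of thalamus (red) and HPC (blue) and the mean with SD. Thalamus sets lie above all HPC sets for Ccl2, Ccl3, Ccl4, Ccl6 and Ccl9 and interleave with them for Ccl12, Ccl5 and Cxcl10.

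Of 12980 genes tested in this fit, 8.84% were higher in the thalamus against 4.68% lower, beside 5 higher and 0 lower among the 9 members tested. With the replicate block 3767 genes were called in place of 1755, and 6 members, Cxcl16 being the one added. Summed levels mix the share of cells with a transcript and the amount in each, and in sums fewer expressing cells and less RNA per cell cannot be told apart. So every cell was also thinned to 2979 UMIs, which left out 1108 shallower thalamus and 776 HPC cells. Ccl3 was then seen in a mean of 25.7% of thalamus and 10.9% of HPC microglia-like cells, Ccl4 in 29.5% and 13.2%, Ccl6 in 32.2% and 18.5%, Ccl9 in 20.4% and 13.4% and Ccl2 in 12.6% and 5.29%. The shares for Ccl12 were 36.2% and 33.8%. Without thinning the order was the same, for example 31.7% and 14.7% for Ccl3, with median depths of 4647 and 4737 UMIs. In T- or NK-like cells (median depths 3400 and 3954) thinned shares were 4.55% and 2.34% for Ccl3, 6.56% and 2.47% for Ccl4, 2.72% and 1.17% for Ccl6, 2.22% and 0.445% for Ccl9 and 0.763% and 0.247% for Ccl2. All were under the microglial shares. They can hold free RNA as well as transcripts of these cells themselves, which were not told apart. Cxcl10 was seen in 2.14% and 1.87% of microglia-like cells and in 2.53% and 0.566% of T- or NK-like cells. In the thalamus its microglia-like share was thus not above the T- or NK-like one, while in the HPC the ranges over sets (0.941% to 3.29% and 0% to 1.14%) overlapped. In inflammatory-like microglia the Cxcl10 shares were 6.32% and 7.19%, and in interferon-like microglia 6.35% and 12.4%.

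Other gene lists were compared between the regions as well. The list of 20 dissociation and immediate-early genes (Fos, Jun, Egr1, Hspa1a and others) summed to 54.9 to 80.0 per 10000 in thalamus microglia-like cells and 50.4 to 67.5 in HPC cells. Of its 19 tested genes 9 were higher in the thalamus, with 0 lower (median log2 fold change 0.43, against −0.02 over all genes). Interferon-stimulated genes gave 4 higher of 19 (median 0.91) and NF-kB targets 3 of 17 (median 0.00), with 0 lower in each, beside 8.84% of all genes higher. The NF-kB median was thus close to that of all genes. Gate markers made up 14 of the 20 interferon-stimulated genes listed and 11 of the 18 NF-kB targets listed. T or NK markers summed to 0.564 to 0.684 per 10000 in thalamus and 0.304 to 0.346 in HPC microglia-like cells, against 107 to 117 in thalamus T- or NK-like cells. The part of these lists in the ligand differences was not tested.

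The next comparisons asked how ligands differed between microglial states of the same sets. In DAM-like microglia, which carry lysosomal, lipid and phagocytic genes, 8 of the 8 tested members were higher than in homeostatic-like microglia, beside 18.5% of 10325 genes higher and 17.0% lower. Ccl3 and Ccl4 led. Ccl3 rose by 2.39 ± 0.11 on the log2 scale and Ccl4 by 2.30 ± 0.10 (edgeR adjusted p = 1.29e-17 and 7.18e-18). In homeostatic-like cells Ccl3 measured 1.17, 0.432, 0.735 and 0.683 in the thalamus against 0.397, 0.248, 0.507 and 0.444 in the HPC, and in DAM-like cells 4.43, 2.91, 4.72 and 3.86 and 1.83, 1.10, 2.47 and 0.831. Every set was higher in its DAM-like cells, HPC set 4 by the least.

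Ccl5 followed with 1.92 ± 0.15, Ccl6 with 1.78 ± 0.15, Cxcl16 with 1.43 ± 0.09, Ccl2 with 1.10 ± 0.12 and Ccl9 with 1.08 ± 0.12 (edgeR adjusted p at most 2.08e-08). Cxcl16 was the most even member in DAM-like microglia, at 1.44, 1.62, 1.57 and 1.48 in the thalamus against 1.90, 1.43, 1.78 and 1.49 in the HPC. In homeostatic-like cells it measured 0.845, 0.666, 0.460 and 0.544 in thalamus sets and 1.04, 0.555, 0.516 and 0.493 in HPC sets. The ranges of the states did not overlap. Ccl12 differed least, by 0.48 ± 0.08 (edgeR adjusted p = 1.18e-05), and in thalamus sets 1 and 4 its DAM-like levels (3.04 and 1.98) were below the homeostatic-like ones (3.17 and 2.00). Without the set as a block the Ccl12 difference was no longer called.

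Interferon-like microglia, gated on genes such as Ifit3 and Isg15, had the highest Ccl12 level of all classes and states. It measured 18.2, 16.2, 10.4 and 10.7 in the thalamus against 22.9, 21.0, 14.6 and 17.2 in the HPC. The homeostatic-like levels were 3.17, 2.37, 1.27 and 2.00 in thalamus sets and 3.65, 1.86, 1.54 and 1.88 in HPC sets. No other state or class except 1 macrophage- or monocyte-like set (12.2, HPC set 2) reached the lowest interferon-like set. The log2 fold change was 2.99 ± 0.08 (edgeR adjusted p = 6.06e-51). Ccl2 rose by 2.73 ± 0.16, from 0.124 to 0.443 in homeostatic-like to 0.517 to 3.31 in interferon-like cells, with no overlap (edgeR adjusted p = 7.66e-26).

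Ccl5 (2.14 ± 0.21), Ccl4 (1.38 ± 0.13) and Cxcl16 (0.87 ± 0.14) were also higher in interferon-like microglia (edgeR adjusted p at most 1.08e-06). Ccl3, Ccl6 and Ccl9 were not called, with log2 differences of 0.28 ± 0.19, 0.23 ± 0.14 and 0.47 ± 0.16 (edgeR adjusted p = 0.48, 0.407 and 0.0526). Ccl9 was called without thalamus set 2 or HPC set 2 and under the 5% mitochondrial limit (adjusted p = 0.0148, 0.0479 and 0.0102). With the stricter gate Ccl3 was called at 1.43 ± 0.21 (adjusted p = 1.19e-07) and Ccl5 was 2.85. Thus 5 of 8 tested members were higher and 0 lower, beside 6.77% and 2.87% of 8022 genes. Interferon-like cells were few, 20 to 76 per set, and Cxcl10 did not pass the count filter there. It measured 3.23, 0.868, 0 and 0.306 in the thalamus, where the 0 of set 3 allows up to 0.183, and 5.31, 1.83, 0.582 and 1.83 in the HPC.

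In inflammatory-like microglia, gated on Il1b, Tnf, Nfkbiz and related genes, Cxcl10 differed most of the tested members. Its log2 difference from homeostatic-like cells was 4.53 ± 0.25 (edgeR adjusted p = 3.49e-21). The mean Cxcl10 level over sets was higher in interferon-like microglia, where it did not pass the count filter. In inflammatory-like cells Cxcl10 measured 1.43, 0.210, 0.719 and 1.64 in the thalamus against 0.511, 0.203, 0.993 and 2.03 in the HPC. The homeostatic-like levels were 0.0309, 0.0555, 0.00859 and 0.0626 in thalamus sets and 0.0874, 0.0119, 0.0201 and 0.0205 in HPC sets. The lowest inflammatory-like set was above the highest homeostatic-like one, although the latter rest on 2 to 39 UMIs each. Ccl4 (1.64 ± 0.10), Ccl2 (1.62 ± 0.13), Ccl12 (1.35 ± 0.08), Ccl3 (1.29 ± 0.10), Cxcl16 (0.96 ± 0.08) and Ccl5 (0.70 ± 0.16) were higher too (edgeR adjusted p at most 0.00214).

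Ccl6 and Ccl9 were the members not called in the inflammatory-like comparison, with differences of −0.02 ± 0.09 and 0.12 ± 0.11 (edgeR adjusted p = 0.955 and 0.627). In all, 7 of 9 tested members were higher and 0 lower, beside 5.38% and 2.36% of 9490 genes. With the stricter gate the log2 fold changes were larger for Cxcl10 (6.76), Ccl4 (2.92), Ccl2 (2.49), Ccl3 (2.42) and Ccl12 (2.04), and that of Cxcl10 was 5.203 without HPC set 1. The Ccl5 call was lost in DESeq2, without HPC set 1 and without the set block. Immediate-early genes moved with this state as well, 11 of 18 higher, summing in the thalamus to 84.4 to 115 per 10000 in inflammatory-like and 72.9 to 92.4 in homeostatic-like cells, and in the HPC to 55.0 to 71.3 and 53.9 to 67.4. In DAM-like cells 3 of 18 were higher and 8 lower. Their part in the ligand differences was not tested. In the state fits edgeR shared its estimate of the spread across genes, and the 7 residual degrees of freedom per gene became a median of 29.6 to 82.3.

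**Figure D3:**
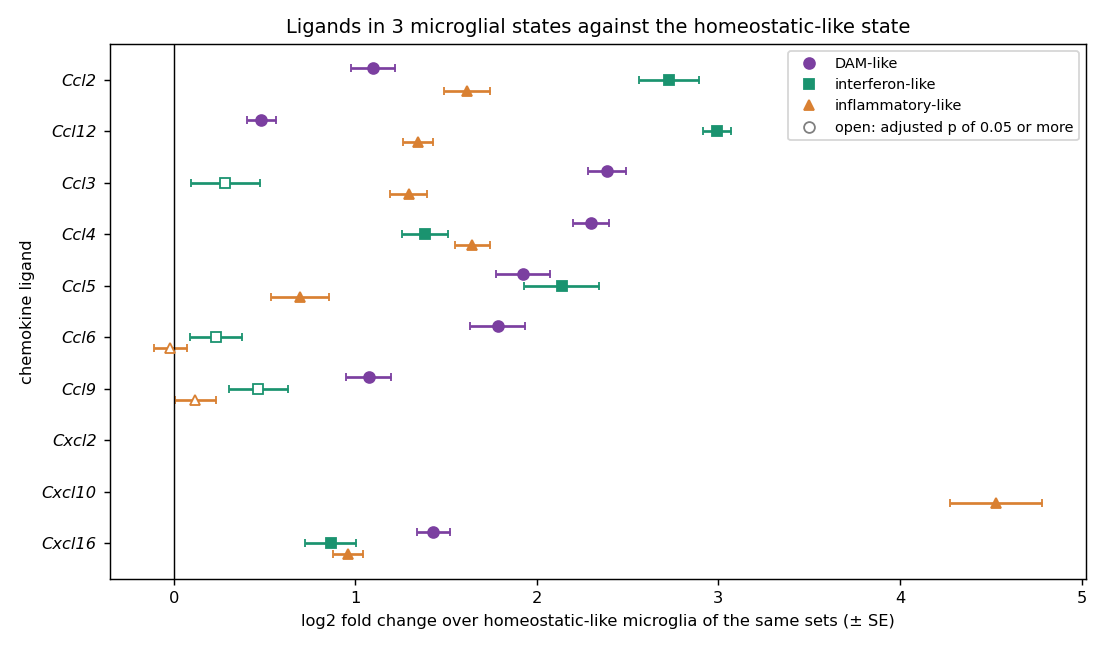
Log2 fold change (± SE) of each ligand in DAM-like, interferon-like and inflammatory-like microglia over homeostatic-like microglia of the same sets, with open symbols where the adjusted p was 0.05 or more. Ccl3 and Ccl4 reach 2.39 and 2.30 in the DAM-like state, Ccl2 and Ccl12 2.73 and 2.99 in the interferon-like state, and Cxcl10 4.53 in the inflammatory-like state, and no point is drawn where a gene did not pass the count filter.

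State shares differed between regions, so the regions were compared again within a state. DAM-like cells made up 37.7%, 22.6%, 21.5% and 23.4% of microglia-like cells in the thalamus sets and 9.29%, 3.31%, 2.00% and 4.14% in the HPC sets. Homeostatic-like cells made up 10.3% to 31.0% and 27.3% to 62.6%. When the thalamus levels of each state were weighted by the HPC state shares, the thalamus to HPC ratio went from 4.23 to 2.06 for Ccl3, from 3.82 to 2.04 for Ccl4, from 3.40 to 1.83 for Ccl6, from 2.75 to 1.91 for Ccl2 and from 2.16 to 1.46 for Ccl9. These are pooled values with no test, and each of these 5 ratios stayed above 1. The ratios of Cxcl16 and Cxcl10 went from 1.23 to 0.859 and from 1.31 to 0.704, turning from above to below 1, and those of Ccl12 (0.918 to 0.819) and Ccl5 (0.842 to 0.611) stayed below.

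In homeostatic-like microglia Ccl4 and Ccl2 were higher in the thalamus. Ccl4 measured 1.78, 1.13, 1.52 and 1.45 there and 0.769, 0.642, 0.696 and 0.495 in the HPC, without overlap (log2 fold change 1.15 ± 0.14, edgeR adjusted p = 0.00224). Ccl2 measured 0.443, 0.290, 0.421 and 0.385 against 0.240, 0.125, 0.124 and 0.142, also without overlap (1.30 ± 0.22, edgeR adjusted p = 0.0179), but its adjusted p was 0.0515 to 0.106 when thalamus set 1, 3 or 4 or HPC set 2, 3 or 4 was left out. Of 11112 genes, 0.351% were higher and 0.0810% lower. With the replicate block Ccl3 (0.83 ± 0.12) and Ccl6 (0.28 ± 0.07) were called too (edgeR adjusted p = 8.96e-05 and 0.0262), as were 390 genes in place of 48. Ccl3 was also called without HPC set 1 (0.90 ± 0.21, adjusted p = 0.0215) and without the count filter. The immediate-early list summed to 72.9 to 92.4 per 10000 in thalamus and 53.9 to 67.4 in HPC homeostatic-like cells, with 8 of its 18 tested genes higher.

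In DAM-like microglia Ccl3, Ccl6 and Ccl9 were higher in the thalamus, beside 1.03% of 10201 genes higher and 0.304% lower. Ccl6 measured 3.88, 2.92, 7.34 and 3.30 in the thalamus against 1.14, 1.42, 2.94 and 1.62 in the HPC. HPC set 3, with 39 DAM-like cells, was just above thalamus set 2, and set 3 was the highest of each region. The log2 fold change was 1.54 ± 0.26 (edgeR adjusted p = 0.00442, and 0.0505 without HPC set 1). Ccl3 had a log2 fold change of 1.44 ± 0.20 (edgeR adjusted p = 0.000592) and its regions did not overlap.

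Ccl9 measured 1.59, 1.10, 1.89 and 1.41 in thalamus DAM-like cells and 0.523, 0.457, 1.52 and 0.889 in those of the HPC. HPC set 3 again reached into the thalamus range (log2 fold change 1.19 ± 0.22, edgeR adjusted p = 0.00868), and the call was lost in DESeq2 (adjusted p = 0.192) and without HPC set 1 or 2 (0.106 and 0.0614). Ccl4 missed the threshold with 1.01 ± 0.26 (edgeR adjusted p = 0.0557), but was called without thalamus set 2 (adjusted p = 0.0171) or HPC set 3 (0.00339), with the stricter gate (0.0305), without the count filter and without Malat1-poor cells (0.0275). Ccl2, at 0.41 ± 0.29 (edgeR adjusted p = 0.598), was 1.56 ± 0.33 without HPC set 1 (adjusted p = 0.0392). Ccl5, at −0.90 ± 0.31 (edgeR adjusted p = 0.182), was called lower without Malat1-poor cells (−1.12 ± 0.28, adjusted p = 0.0433). With the replicate block 449 genes were called in place of 136, and Ccl4 (1.02 ± 0.15) and Ccl2 (0.64 ± 0.17) were then higher in the thalamus and Ccl12 (−0.42 ± 0.10) and Ccl5 (−0.70 ± 0.13) lower (edgeR adjusted p at most 0.0189). The immediate-early list moved with region here too, summing to 44.8 to 57.2 per 10000 in thalamus and 37.3 to 47.3 in HPC DAM-like cells, with 4 of its 17 tested genes higher and 0 lower (median 0.52), and its part was not tested.

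The test of whether the DAM-like difference itself differed between regions called Ccl6 and Ccl9 of 9 tested members, beside 0.230% of 10858 genes in that direction and 0.0645% in the other. For Ccl6 the DAM-like over homeostatic-like log2 difference was larger in the thalamus by 1.16 ± 0.21 (edgeR adjusted p = 0.00436). Its homeostatic-like levels were close in the regions (0.967 ± 0.112 and 0.785 ± 0.122, n = 4 each) while the DAM-like levels were 4.36 ± 2.03 and 1.78 ± 0.802. For Ccl9 it was larger by 0.89 ± 0.20 (edgeR adjusted p = 0.0327), and in HPC set 2 the DAM-like level (0.457) was below the homeostatic-like one (0.619).

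Neither region-by-state call held in every setting: in DESeq2 the adjusted p was 0.319 for Ccl6 and 0.213 for Ccl9, with the stricter marker gate 0.0677 for each, and without cells poor in Malat1 0.138 and 0.449. The Ccl9 call was also lost without thalamus set 1, 3 or 4 or HPC set 1 or 2 (0.0642 to 0.26). Ccl3, at 0.59 ± 0.18 (edgeR adjusted p = 0.234), and Ccl4, at −0.05 ± 0.18 (edgeR adjusted p = 1), were not called.

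**Figure D4:**
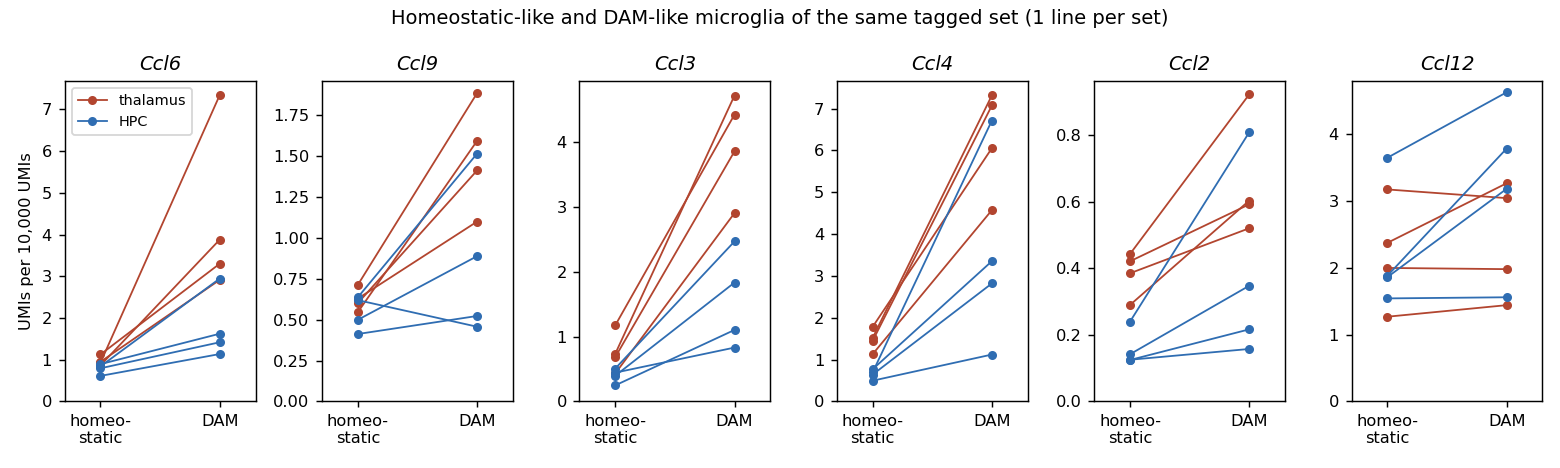
Levels of 6 ligands, in UMIs per 10,000 UMIs, in homeostatic-like and DAM-like microglia of each tagged set, joined by a line (thalamus red, HPC blue). The Ccl6 lines start close together and end at 2.92 to 7.34 in the thalamus against 1.14 to 2.94 in the HPC, whereas the Ccl12 lines of the regions interleave at both ends.

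Other cell classes were compared between the regions as well. In T- or NK-like cells 1 of 7 tested members was called, beside 0.229% of 9176 genes higher in the thalamus, with 0.109% lower. This was Ccl9 (log2 fold change 2.43 ± 0.47, edgeR adjusted p = 0.0487), at 0.103, 0.085, 0.115 and 0.0945 per 10000 in the thalamus against 0.0193, 0, 0 and 0.0349 in the HPC. The values rest on 2 to 25 UMIs per set where above 0, and the call was lost when thalamus set 3 or HPC set 2, 3 or 4 was left out (adjusted p = 0.0815 to 0.157), with a 5% mitochondrial limit (0.102) and without Malat1-poor cells (0.0508). Ccl9 did not pass the count filter there when thalamus set 1, 2 or 4 or HPC set 1 was left out or the marker gate was stricter, and DESeq2 gave no adjusted p. The 14 microglia markers summed to 14.1 to 16.5 per 10000 in thalamus T- or NK-like cells and 9.51 to 11.9 in the HPC ones, moving the same way, and their part was not tested.

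In neutrophil-like cells, compared over 3 sets per region, Ccl4 measured 9.99, 9.35 and 8.15 in thalamus sets 1, 2 and 4 and 4.92, 1.60 and 0.575 in HPC sets 1, 2 and 4. The regions did not overlap, but the log2 difference of 1.57 ± 0.34 just missed the threshold (edgeR adjusted p = 0.0581). It was called without thalamus set 1 or 4 (adjusted p = 0.0424 and 0.00454), and without HPC set 1 it was 3.20 ± 0.38 (adjusted p = 0.000361). Cxcl2 measured 14.4, 9.48 and 17.9 against 5.07, 1.60 and 9.78, with HPC set 4 above thalamus set 2 (1.32 ± 0.33, edgeR adjusted p = 0.166). It was called without either of these sets (adjusted p = 0.0138 without HPC set 4 and 0.0411 without thalamus set 2). Ccl3 differed by 1.02 ± 0.32 (edgeR adjusted p = 0.453) and Ccl6 by −0.11 ± 0.26 (edgeR adjusted p = 0.999). Thus 0 of the 4 tested members were called, beside 0.131% of 3054 genes higher and 0.0327% lower. With the replicate block Ccl4 (1.68 ± 0.21), Cxcl2 (1.46 ± 0.19) and Ccl3 (1.25 ± 0.23) were called higher in the thalamus (edgeR adjusted p at most 6.63e-05), among 38 genes in place of 5.

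In macrophage- or monocyte-like cells, with 3 thalamus and 2 HPC sets of 30 to 97 cells, edgeR called 0 of 5386 genes in either direction (0% higher and 0% lower), DESeq2 also called 0, and 225 genes had an unadjusted p under 0.05. Ccl5 measured 0.3593, 1.931 and 0.5004 in thalamus sets 1, 2 and 4 and 10.77 and 4.453 in HPC sets 1 and 2, without overlap (log2 difference −3.15 ± 0.58, edgeR adjusted p = 0.272). Ccl12 measured 1.16, 1.10 and 1.33 against 1.34 and 12.2 (−2.44 ± 0.65, edgeR adjusted p = 0.979). HPC set 2 alone carried the higher Ccl12 level, which was called without HPC set 1 (−3.33 ± 0.26, adjusted p = 0.00114), and Ccl5 was called without thalamus set 2 (−4.21 ± 0.47, adjusted p = 0.0379) and with the stricter gate (adjusted p = 0.0406). With the replicate block 70 genes were called, with Ccl2 (1.76 ± 0.35) and Ccl4 (1.00 ± 0.28) higher and Ccl12 (−1.81 ± 0.30) and Ccl5 (−2.99 ± 0.30) lower in the thalamus (edgeR adjusted p at most 0.0357). In that fit only sets 1 and 2 formed pairs. The 14 microglia markers summed to 75.1 to 140 per 10000 in these cells (367 to 416 in microglia-like cells), and their part in the ligand levels was not tested.

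Single cells showed how the transcripts were spread within microglia-like cells. Ccl4 was concentrated: 24.5% of the cells had a UMI, and 1374 cells with 5 or more held 78.9% of its UMIs, up to 176 in 1 cell. Cxcl10 was more so, with 134 such cells holding 81.1% of its UMIs and 2.68% of cells having any. Ccl12 reached 43.9% of the cells and had 67.8% of its UMIs in 1758 cells with 5 or more. Cxcl16 and Ccl9 were spread thinly, with 33.9% and 23.4% of cells positive but only 10.9% and 17.8% of UMIs in such cells, and at most 12 and 18 UMIs per cell.

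Pairs of ligands were then counted in the same cells after thinning to 2979 UMIs, against the number expected from each set's own shares. Ccl3 and Ccl4 were found together in 1433 cells where 725 were expected, a ratio of 1.98 with sets from 1.68 to 2.72. In the thalamus Ccl4 was seen in 55.1% of cells with Ccl3 and 20.4% of those without, and in the HPC in 34.2% and 10.6%. The excess was also present within homeostatic-like cells (2.14, sets 1.80 to 2.46) and DAM-like cells (1.68, sets 1.52 to 2.55). The neighbours Ccl2 and Ccl12 gave 1.49 (sets 1.25 to 1.93) and Ccl6 and Ccl9 1.37 (sets 1.18 to 1.52).

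The highest ratio was that of Ccl2 and Cxcl10, 94 cells against 33.5 expected (2.81, sets 1.59 to 6.25), and Cxcl10 also exceeded the expected number with Ccl4 (1.87, sets 1.61 to 2.55) and Ccl12 (1.69, sets 1.43 to 2.14). Within homeostatic-like cells Ccl2 and Cxcl10 were together in 0 cells with 1.85 expected. Within DAM-like cells they were together in 5 with 3.86 expected (1.3, sets 0 to 7.67). With so few cells expected, these counts cannot decide whether the excess of this pair was present within either state. Ccl12 and Ccl6, each in many cells, were found together in 1403 cells with 1450 expected (0.969, sets 0.916 to 1.04). Of the 36 pairs with at least 20 cells expected, 16 were above 1 in every set and 3 were below 1 over all sets. These ratios describe cells that share a set and are given with no test.

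**Figure D5:**
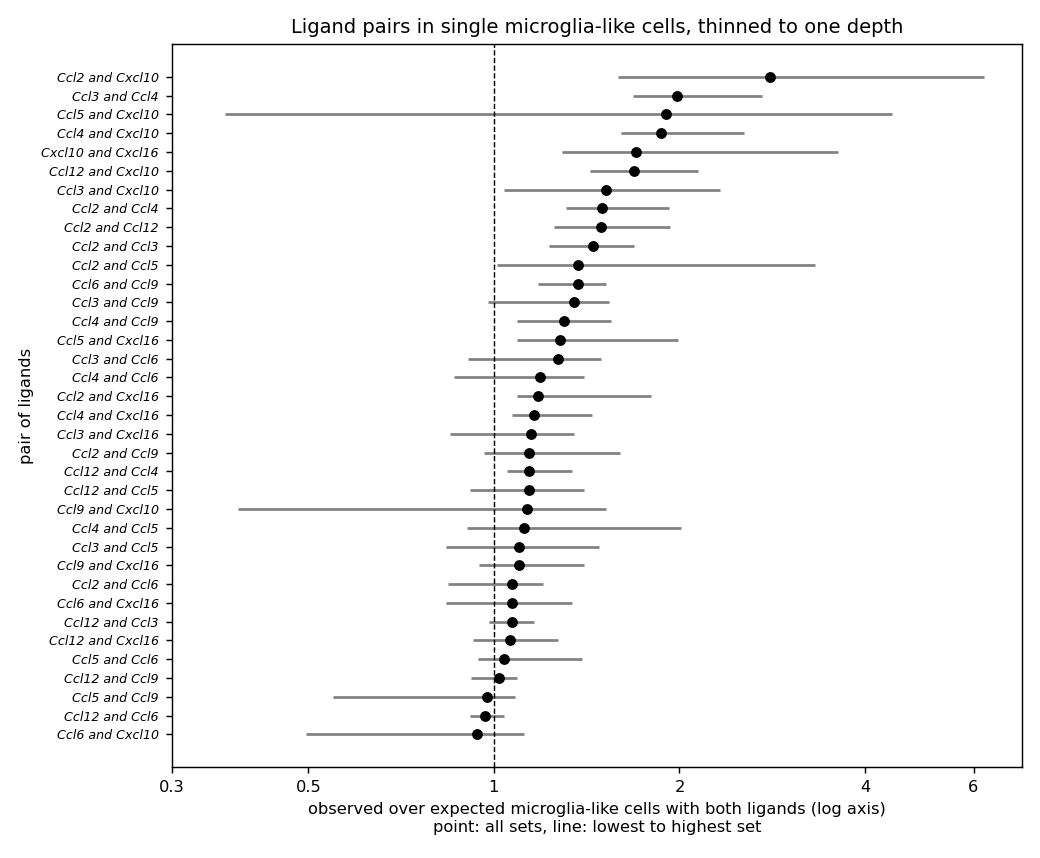
Observed over expected number of microglia-like cells holding both ligands of a pair after thinning (point, all sets; line, lowest to highest set; log axis; 36 pairs with at least 20 expected cells). Ccl2 with Cxcl10 (2.81) and Ccl3 with Ccl4 (1.98) stand at the top, and Ccl12 with Ccl6 (0.969) is near the bottom.

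Receptors of the ligands were unevenly placed among the cell classes. Ccr2, the receptor for Ccl2 and Ccl12, averaged 8.42 ± 1.19 in macrophage- or monocyte-like cells (n = 5), 4.09 ± 0.765 in T- or NK-like cells (n = 8) and 0.0511 ± 0.0156 in microglia-like cells. Cxcr2, for Cxcl2, averaged 13.2 ± 2.30 in neutrophil-like cells (n = 6), in the same class as its ligand, and 0.00578 ± 0.00293 in microglia-like cells. Cxcr3, for Cxcl10, and Cxcr6, for Cxcl16, averaged 1.25 ± 0.396 and 11.9 ± 2.40 in T- or NK-like cells. No set of another class reached the T- or NK-like range of either.

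Ccr1, for Ccl3, Ccl5, Ccl6 and Ccl9, averaged 6.09 ± 1.05 in neutrophil-like cells. Over the list of 24 chemokine receptors, 1 was higher and 2 lower in thalamus microglia-like cells among 13 tested (median log2 fold change −0.10, −0.02 over all genes), and 1 was higher and 3 lower in DAM-like microglia among 4 tested (median −0.60).

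Of 28 other chemokine ligands listed, 24 were found as a single row and 11 reached 20 CPM in some class or state. Ccl7, Ccl8, Ccl24 and Pf4 were highest in macrophage- or monocyte-like cells (0.352, 0.649, 0.667 and 1.77 per 10000), Ccl17, Ccl22 and Cxcl9 in dendritic-like cells (0.240, 0.692 and 1.57), and Ccl1 and Xcl1 in T- or NK-like cells (0.267 and 0.823). Cxcl13, a B cell attractant, was highest in MHC class II-like microglia (3.20 ± 2.89, n = 5) and Ccl25 in interferon-like microglia (0.476 ± 0.212). Between regions 1 of 10 tested was higher in thalamus microglia-like cells and 0 lower, namely Cxcl14, which was below that level (at most 0.190 per 10000 on average) and was named after its values were seen (log2 fold change 3.31 ± 0.22, edgeR adjusted p = 0.000194). In DAM-like microglia Cxcl14 (5.02 ± 0.32) and Cxcl13 (1.69 ± 0.25) were higher among 3 tested (edgeR adjusted p at most 2.49e-06), and Cxcl13 was also higher in interferon-like (2.07 ± 0.19) and inflammatory-like microglia (1.11 ± 0.16, edgeR adjusted p at most 5.66e-07).

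The genes most alike in pattern were sought over 67 sums of a class or state and a set, by Pearson's r of log2(CPM + 1) among 9320 genes, as a description over sums that share cells and sets. Cxcl2 ran closest to Trem1 (0.935), Clec4e and Mcl1. Ccl6 ran closest to Tpd52 (0.937), Tyrobp and Plaur, Cxcl16 to Acvrl1 (0.937), H2-DMb1 and Slamf8, and Ccl12 to Prune2 (0.888), C1qc and C1qa. For Ccl5 the closest were Eef1b2 (0.857) and the ribosomal protein genes Rpl23 and Rpl27a. Among these matches Trem1, H2-DMb1, C1qc and C1qa are gate genes, so their likeness over gated sums is partly built in.

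Ccl9 was most like Ccdc88a (0.843), Alpk1 and Ctsh, Ccl3 like Kcnj2 (0.771), Dgkz and Cd9, and Ccl4 like Cd9 (0.762), Tmem185b and Cd14, where Cd9 and Cd14 are gate genes. Ccl2 was most like Gm17268 (0.804), the gene on the opposite strand of its own locus, then Grn and Capza2. Cxcl10 had no close match (Rtp4 0.54, Ifih1 0.535 and Slfn5 0.511), of which Rtp4 and Slfn5 are gate genes.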

How the data were processed

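Live CD45+ cells of thalamus and HPC were profiled with the 10x Single Cell 3′ v3.1 chemistry. The authors deposited raw UMI counts per gene and cell for each tagged set, made with Cell Ranger (7.1.0 in the matrix headers) on mm10. Intron counting and strand use are not given in the sources used here. The members and all lists were chosen with earlier results of these data known.

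Cells with 200 to 7500 genes and at most 2% mitochondrial counts were kept. A class needed UMIs from 9 of 14 microglia, 4 of 15 macrophage or monocyte, 4 of 14 neutrophil, 5 of 18 T or NK, 4 of 14 dendritic or 5 of 13 B or plasma cell markers. States of microglia-like cells needed 5 of 13 DAM (lowered by 1 after cell numbers were seen), 8 of 17 interferon, 7 of 14 inflammatory, 5 of 6 MHC class II or 4 of 12 cycling markers, and homeostatic-like cells 9 of 12 homeostatic markers with few of the others. No doublet caller was run, cells with the markers of more than 1 class stayed ungated, and 1 marker gene and 1 receptor gene are not reported here.

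Counts were summed per set and class or state with at least 20 cells and tested in edgeR 4.0.16 (quasi-likelihood, TMM, Benjamini-Hochberg over all genes tested, adjusted p under 0.05, R 4.3.3). Region fits had no block, and state fits had the set as a block. The SE is the absolute log2 fold change over the square root of F. The same-numbered sets of the regions deviated together (r = 0.507, 0.136, 0.476 and 0.175, each the highest of its thalamus set; HPC set 2 was closer to thalamus set 3, r = 0.156), so numbers were taken to pair them, from the data and not from a stated litter or day. P-values of the region fits without a block measure the spread between tagged sets. Those of fits with the set as a block measure how the state difference, taken within each set, varied between sets. In the region fits too edgeR shared its estimate of the spread across genes. There 3 to 6 residual degrees of freedom per gene became a median of 9.85 to 21.9. DESeq2 1.42.0, no count filter, a 5% mitochondrial limit, stricter gates, removal of Malat1-poor cells, leaving out sets and the block were tried. Intervals and limits at a count of 0 (3 UMIs) cover counting error only. Fits were tested on simulated data. Levels, thinning and co-detection used Python 3.11.15 with numpy 2.4.6 and pandas 2.3.3.

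All 10 members were examined in every comparison they entered. A tested member not named beside a fit was not called in the main setting of that fit. Other ligands are named at 20 CPM or more, the receptors Ccr1, Ccr2, Cxcr2, Cxcr3 and Cxcr6 always, and the 3 most alike genes per member by Pearson's r of log2(CPM + 1).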

Additional observations from a re-analysis of the deposited data

Results flagged for a closer look

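The DAM-like over homeostatic-like log2 difference was larger in the thalamus than in the HPC for Ccl6 (by 1.16) and Ccl9 (by 0.89), by the edgeR test of that difference.

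In 17 of 120 groups of 4 sets, 1 set stood apart. Its gap to the nearest other set took more of the group's range than Dixon's critical value. Chance gives about 1 group in 20 for independent values with a normal spread. The groups here share sets and cells, and some hold counts near 0, so that rate cannot be applied to them. Where 1 set alone had UMIs the gap is 1.0 in any case. Set 1 of a region was the set apart in 11 of the 17. In thalamus set 1, microglia-like cells held 1.38 Ccl2 UMIs per 10000 against 0.724 to 0.734 in the others (gap 0.985 of the range) and 0.831 Cxcl10 against 0.151 to 0.197 (0.933), and T- or NK-like cells held 0.740 Ccl3 against 0.157 to 0.253 (0.835). In HPC set 1, homeostatic-like microglia held 0.240 Ccl2 against 0.125 to 0.142 (0.85), 3.65 Ccl12 against 1.54 to 1.88 (0.839), 0.0874 Cxcl10 against 0.0119 to 0.0205 (0.885) and 1.04 Cxcl16 against 0.493 to 0.555 (0.888).

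Also in HPC set 1, T- or NK-like cells held 2.25 Ccl4 against 0 to 0.110 (0.951), interferon-like microglia 2.69 Ccl5 against 0.162 to 0.416 (0.90) and inflammatory-like microglia 0.431 Ccl6, the lowest, against 0.802 to 0.822 (0.951). Ccl6 was also lowest in thalamus set 3 in inflammatory-like microglia, 0.790 against 1.15 to 1.23 (0.833), and Ccl9 in thalamus set 2 in microglia-like cells, 0.814 against 1.19 to 1.24 (0.879). In HPC set 2, T- or NK-like cells held 0.529 Cxcl10 against 0 to 0.0827 (0.844).

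The Cxcl2 gaps rest on few UMIs: 6 in T- or NK-like cells of HPC set 1 (1.0 of the range), 4 in interferon-like microglia of thalamus set 2 (1.0), 1 in inflammatory-like microglia of HPC set 2 (1.0) and 1 in DAM-like microglia of HPC set 3 (0.884).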

How the results depend on the processing

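Cell numbers limited the small classes: with at least 20 cells needed, macrophage- or monocyte-like and neutrophil-like sums came from 3 or fewer sets a region, and sets absent from a fit could not be left out of it. Where an arm kept 1 sample, that sample was assumed to vary like the others. Of 33 called member results 24 kept their call in every alternative run, and 32 of 453 alternatives lost a call and 0 reversed it. Of 47 results not called 29 stayed so throughout. The cause of the changes was not tested.

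In microglia-like cells 1755 genes were called and the replicate block gave 3767. In homeostatic-like microglia 48 were called, and 73 in DESeq2, 287 without the count filter, 17 with the stricter gate and 390 with the block (4 members). In DAM-like microglia 136 were called, and 416 without the filter (7 members) and 449 with the block (7 members), while 5 members were called without Malat1-poor cells. In T- or NK-like cells 31 were called, and 130 without the filter, 13 with the stricter gate and 176 with the block, with 0 members in DESeq2, under the 5% mitochondrial limit, with the stricter gate and without Malat1-poor cells. In macrophage- or monocyte-like cells 0 were called, and 60 (4 members) without the filter, 10 (1 member) with the stricter gate and 70 (4 members) with the block. In neutrophil-like cells 5 were called, and 3 in DESeq2, 11 (2 members) without the filter, 2 with the stricter gate and 38 (3 members) with the block. The block changed no call of a member beyond those given beside the results. In inflammatory-like microglia 735 were called, and 453 in DESeq2 and 336 without the replicate block. The region-by-state test called 32, and 84 without the filter, 86 under the 5% limit, 5 with the stricter gate and 8 without Malat1-poor cells, with 0 members in DESeq2 and under the latter pair of settings.

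Leaving out each set in turn gave 796 (without HPC set 2) to 2890 (without HPC set 1) genes and 4 to 6 members in microglia-like cells, 18 (without thalamus set 4) to 251 (without HPC set 1) and 1 to 3 members in homeostatic-like microglia, 53 (without HPC set 2) to 247 (without thalamus set 2) and 2 to 4 in DAM-like microglia, 12 (without HPC set 2) to 26 and 0 in T- or NK-like cells, 0 to 5 (without HPC set 2) and 0 to 1 in macrophage- or monocyte-like cells, and 2 (without HPC set 1) to 11 (without thalamus set 1) and 0 to 1 in neutrophil-like cells. It gave 3172 to 3621 (8 members) for the DAM-like, 655 to 735 (5 to 6) for the interferon-like and 542 to 679 (6 to 7) for the inflammatory-like state, and 13 (without thalamus set 3) to 54 (without HPC set 1) and 1 to 2 for the region-by-state test.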
